A study of Mus musculus with 12 samples.

Results

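The complement genes examined here were a list of 9 genes: the C1q chains C1qa, C1qb and C1qc, the components C4b, C3, Cfb and Cfp, and the receptors C3ar1 and C5ar1. Symbols were matched through the GENCODE M21 annotation of GRCm38 (mm10), and 8 of the 9 had a row among the 23438 genes of the deposited table. Cfb, which encodes factor B, was not analysed here. The RNA came from macrophages grown from the bone marrow of C57 mice that the submission describes as atherosclerotic, collected on day 7 of differentiation in culture. There were 5 libraries from Baf60a knockout (KO) cells and 7 from wild-type (WT) cells. Baf60a is the protein of Smarcd1, a subunit of the SWI/SNF complex that moves nucleosomes. The allele or Cre behind the knockout, how atherosclerosis was brought about, the age of the mice and whether libraries came from separate mice are not given in the labels, so a p-value here speaks only of how much these libraries varied, and that variation may be technical. Levels are TPM, the length-corrected share of a gene among the transcripts of a library, and carry no sequencing depth.

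Complement is a protein cascade that coats microbes, dying cells and immune complexes. Its classical arm starts when C1q, built from the products of C1qa, C1qb and C1qc, binds a target and the attached proteases C1r and C1s cleave C4 and C2. The lectin arm uses ficolins and collectins with their own proteases. The alternative arm amplifies the response: factor D activates factor B, which becomes part of an enzyme that properdin (Cfp) stabilises. All arms cleave C3, the central component, and the fragments C3a and C5a act on cells through the receptors C3ar1 and C5ar1. The liver makes most circulating complement proteins, while macrophages are a main source of C1q and also make properdin, and C1q from macrophages has been studied in atherosclerotic plaques.

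The C1q genes lie side by side on the minus strand of chromosome 4, within 18675 bases. C1qb (ENSMUSG00000036905) spans 136880129 to 136886187, C1qc (ENSMUSG00000036896) 136889804 to 136893065 and C1qa (ENSMUSG00000036887) 136895917 to 136898803. The other members are spread over the genome. C3 (ENSMUSG00000024164) lies on chromosome 17 at 57203970 to 57228136 and C4b (ENSMUSG00000073418) on the same chromosome at 34728380 to 34743882. Cfp (ENSMUSG00000001128) lies on the X chromosome at 20925454 to 20931555, C3ar1 (ENSMUSG00000040552) on chromosome 6 at 122847138 to 122856161 and C5ar1 (ENSMUSG00000049130) on chromosome 7 at 16246743 to 16259540. RefSeq promoter sequences (GRCm38.p6) were matched for 6 members, C1qb, C1qc, C3, Cfp, C3ar1 and C5ar1. Shown are the 250 bases before the RefSeq start of C1qb, the most abundant member, and of C3ar1, the receptor gene with the clearest difference between genotypes. RefSeq and GENCODE starts differ for some genes: the C1qb window lies wholly outside the GENCODE gene, while 4 bases of the C3ar1 window lie inside it. The windows of C1qc and C5ar1 reach 151 and 202 bases into the GENCODE genes and are not described. Capitals mark every match, on either strand, to 4 motifs of factors known in macrophages.
C1qb (chr4:136886201-136886450, minus strand): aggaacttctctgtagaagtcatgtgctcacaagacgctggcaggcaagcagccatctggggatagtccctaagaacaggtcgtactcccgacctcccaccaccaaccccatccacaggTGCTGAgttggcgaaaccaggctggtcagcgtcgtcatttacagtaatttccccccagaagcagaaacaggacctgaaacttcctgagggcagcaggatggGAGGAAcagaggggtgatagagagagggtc
C3ar1 (chr6:122856158-122856407, minus strand): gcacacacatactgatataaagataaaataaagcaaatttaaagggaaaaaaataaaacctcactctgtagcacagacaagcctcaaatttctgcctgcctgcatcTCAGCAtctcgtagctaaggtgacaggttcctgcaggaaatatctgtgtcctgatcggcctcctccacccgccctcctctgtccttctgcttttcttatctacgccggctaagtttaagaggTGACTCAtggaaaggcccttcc

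The motifs searched were GAGGAA, the core read by PU.1, TGCTGA, a half-site of Maf proteins, TTNNGNAA, the C/EBP pattern, and TGANTCA, the AP-1 pattern. The C1qb window held GAGGAA beginning 30 bases before the start and TGCTGA beginning 131 bases before it. The C3ar1 window held an AP-1 match that reads on both strands 22 bases before the start and a Maf half-site on the other strand 144 bases before it. Of the members not printed, C3 held C/EBP matches beginning 70, 58 and 45 bases before the start and a Maf half-site 182 bases before it. Cfp held none of the 4 motifs in this window. No 2 matches overlapped, apart from those that read on both strands. Among all 32851 promoter windows of this length, 23.3% held GAGGAA, 16.1% TGCTGA, 36.8% TTNNGNAA and 6.75% TGANTCA, and a match describes letters, not a site of binding.

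Smarcd1 itself was at 5.99 to 7.58 TPM in the KO libraries and 11.6 to 15.6 TPM in the WT libraries, lower in every KO library as labelled. All 10 macrophage markers examined were among the 11152 genes tested, those that reached 1 TPM in 5 libraries or more. Their summed level was 8703 to 9829 TPM in KO and 7256 to 24717 TPM in WT replicates 2, 3 and 4. It was 18119 to 20439 TPM in WT replicates 1, 5, 6 and 7. Most of it was the lysozyme gene Lyz2, at 4932 to 5853 TPM in KO and 14635 to 16912 TPM in WT replicates 1, 5, 6 and 7. Of the 10 markers, only Lyz2 was lower in every KO library than in WT replicates 1, 5, 6 and 7. Only Cd14 was higher in every KO library, and the other markers overlapped. The lower sum in KO was therefore not shared by the macrophage markers as a set. WT replicates 2, 3 and 4 stood apart from the other 9 libraries. Their summed level of 10 fibroblast and smooth muscle markers was 3910 to 9799 TPM. It was 191 to 606 TPM in KO and 113 to 425 TPM in WT replicates 1, 5, 6 and 7, and 8 of the 10 were above all 9 other libraries. Their summed level of 10 neutrophil markers was 79.3 to 109 TPM. It was 1005 to 6263 TPM in KO and 1195 to 1547 TPM in WT replicates 1, 5, 6 and 7, and 9 of the 10 were below all 9 others. A list of 6 alveolar macrophage markers summed to 1198 to 2052 TPM in them and did not move together. Nearly all of the sum came from the scavenger receptor gene Marco, at 1186 to 2043 TPM there and 0.13 to 2.64 TPM elsewhere. Of the 6, only Marco was above all 9 other libraries, while 2, Chil3 and Siglecf, were below them all. Chil3 was at 1.99 to 2.99 TPM there and 83.2 to 430 TPM elsewhere. Lists for mast cells, dendritic cells, B cells and T or NK cells summed to 13.6 TPM at most in any library. Within KO, replicates 1 and 4 held the most neutrophil marker transcripts, at 6263 and 4378 TPM. No neutrophil, fibroblast or macrophage marker was at 0 in all libraries. In bulk RNA, fewer cells of a type and less RNA per cell cannot be told apart. Each comparison is therefore given for all 12 libraries and for the 9 left without WT replicates 2, 3 and 4.

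The classical recognition arm dominated. C1qb, C1qc and C1qa together summed to between 7317 and 8046 TPM in the 5 KO libraries and between 7961 and 9799 TPM in WT replicates 1, 5, 6 and 7. That was 88.1% to 89.0% of the summed TPM of the 8 members in KO and 90.7% to 91.2% in those WT libraries. C1qb ranked between 18 and 23 among all listed genes in KO and between 12 and 21 in those WT libraries. C1qa followed at ranks 40 to 44 in KO and 26 to 40 in WT replicates 1, 5, 6 and 7, and C1qc at ranks 77 to 83 in KO and 46 to 70 in them. Next were the receptors, which overlapped in KO at 325 to 371 TPM for C5ar1 and 317 to 381 TPM for C3ar1. In WT replicates 1, 5, 6 and 7, C5ar1 lay above C3ar1 without overlap. Properdin (Cfp) followed, below C3ar1 in KO and overlapping it in those WT libraries. C3 ranked between 3989 and 8141 in KO and between 5860 and 7903 in those WT libraries. C4b was lowest and never reached 1 TPM.

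**Figure D1:**
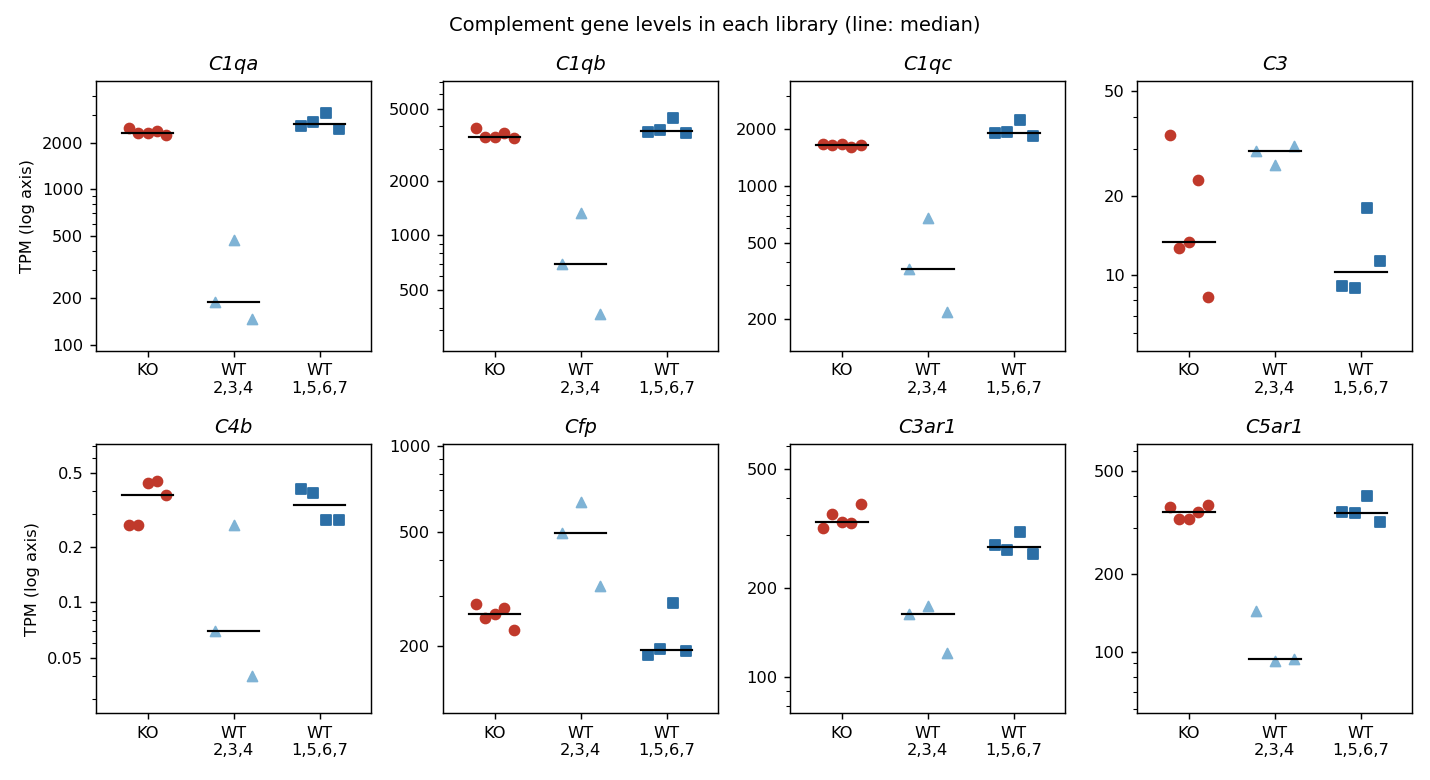
TPM of each complement gene on a log axis, 1 point per library, for 5 KO libraries, WT replicates 2, 3 and 4, and WT replicates 1, 5, 6 and 7, with a line at the median of each. The C1q genes, C3ar1 and C5ar1 were lower in WT replicates 2, 3 and 4 than in all other libraries, and Cfp was higher there.

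C1qa stood at 2483, 2289, 2289, 2372 and 2241 TPM in KO replicates 1 to 5. It was at 188, 474 and 146 TPM in WT replicates 2, 3 and 4, while the values were 2542, 2715, 3113 and 2461 TPM in WT replicates 1, 5, 6 and 7. C1qb stood at 3897, 3479, 3511, 3669.6 and 3428 TPM in KO, at 692, 1331 and 370.1 TPM in WT replicates 2, 3 and 4 and at 3696, 3794, 4440.0 and 3651 TPM in the remaining WT libraries. For both genes the KO libraries overlapped the range of WT replicates 1, 5, 6 and 7, and WT replicates 2, 3 and 4 lay below all others. C1qc stood at 1665, 1661, 1675, 1611 and 1647 TPM in KO. It was at 364, 679.6 and 217 TPM in WT replicates 2, 3 and 4, while the values were 1899.9, 1937, 2246 and 1850.1 TPM in WT replicates 1, 5, 6 and 7. All KO libraries lay below WT replicates 1, 5, 6 and 7 for C1qc and above WT replicates 2, 3 and 4.

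With all 12 libraries no C1q chain passed the test in limma. The log2 fold changes of TPM + 1, KO over WT, were 1.30 ± 0.812 (SE) for C1qa, 0.95 ± 0.596 for C1qb and 0.76 ± 0.569 for C1qc, with limma adjusted p-values of 0.349, 0.350 and 0.405. With 9 libraries all of these turned negative. C1qc fell by 0.26 ± 0.0544 (SE) on the log2 scale, to 1652 ± 24.9 TPM in KO (SD, n = 5) against 1983 ± 179 TPM in WT (SD, n = 4), and the adjusted p from limma was 0.0432. C1qa differed by -0.21 ± 0.0672 (SE), with a 95% interval from -0.36 to -0.06 and a limma adjusted p of 0.133. C1qb differed by -0.11 ± 0.0653 (SE), with a 95% interval from -0.26 to 0.03 and a limma adjusted p of 0.389. The C1qc call lay close to the threshold. It was lost in 8 of the 9 fits that left out a further library, with limma adjusted p-values between 0.0566 and 0.109. Among these fits it held only without WT replicate 6 (adjusted p of 0.0138). The log2 fold change stayed between -0.29 and -0.20 in them. It was also lost with no filter on low genes (0.0877), with the number in the sample names (1 to 5 against 6 to 12) as a covariate (0.083) and without KO replicates 1 and 4 (0.105). It held with median-ratio scaling (limma adjusted p of 0.0327), quantile normalization (0.0308), a minimum of 5 TPM (0.0369), a pseudocount of 0.1 (0.0429) and sample quality weights (0.0185).

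The members as a group did not move in a common direction between genotypes. With all 12 libraries, limma called 0 of the 7 tested members, where 0.126% of all tested genes were called. Before adjustment 1 of the 7 had p under 0.05, as did 17.5% of all tested genes. Their median log2 fold change was 0.71, beside 0.04 over all tested genes. With 9 libraries, 2 of the 7 were called, C1qc lower and C3ar1 higher in KO, where 2.33% of all tested genes were called and 1.61% were called as higher in KO. Before adjustment 4 of the 7 had p under 0.05, as did 18.9% of all tested genes. The median was then -0.02, beside 0.05 over all tested genes. The ranges of KO and WT did not overlap for 1 tested member with 12 libraries (C3ar1) and for 2 with 9 libraries (C3ar1 and C1qc). The same held for 3.56% of all tested genes with 12 libraries and 9.17% with 9. C4b did not reach the level needed for testing and is in none of these counts.

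**Figure D2:**
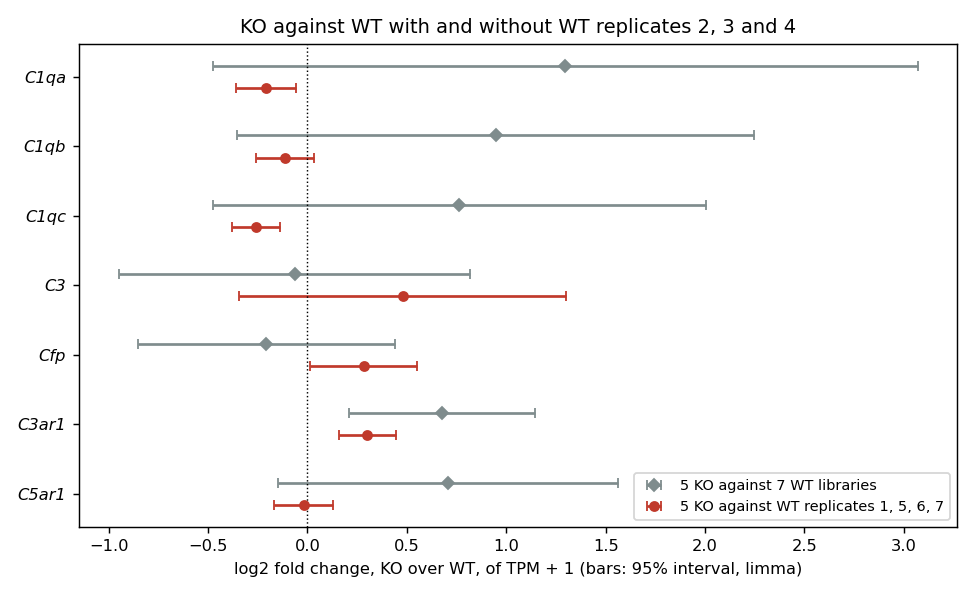
Log2 fold change of TPM + 1, KO over WT, of the 7 tested members, with 95% intervals from limma, for 5 KO against 7 WT libraries (grey diamonds) and for 5 KO against WT replicates 1, 5, 6 and 7 (red circles). C1qa, C1qb and C1qc lay above 0 with 12 libraries and below 0 with 9, while C3ar1 lay above 0 in both.

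C4b, whose product is cleaved on the way to the classical C3-cleaving enzyme, was barely present. It was at 0.26 to 0.45 TPM in KO, at 0.07, 0.26 and 0.04 TPM in WT replicates 2, 3 and 4, and at 0.28 to 0.41 TPM in WT replicates 1, 5, 6 and 7. Its close paralog C4a was at 0.37 to 1.43 TPM in KO and 0.16 to 1.15 TPM in WT, and reads of the 2 genes may have been divided between them, so neither level is certain.

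C3 was low and varied between libraries of one genotype. It stood at 34.1, 12.7, 13.3, 23.0 and 8.24 TPM in KO replicates 1 to 5. The WT libraries held 29.6, 26.3 and 30.8 TPM in replicates 2, 3 and 4, and 9.09, 8.92, 18.0 and 11.3 TPM in replicates 1, 5, 6 and 7. The highest KO libraries, replicates 1 and 4, lay above WT replicates 1, 5, 6 and 7, and the lowest, replicate 5, lay below them all. The log2 fold change was -0.07 ± 0.405 (SE, limma adjusted p of 0.925) with 12 libraries and 0.48 ± 0.367 (SE, adjusted p of 0.527) with 9, with a 95% interval from -0.34 to 1.30 in the 9. Without KO replicates 1 and 4 as well it was -0.02.

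C3 is given here beside markers of other cell types, which moved with it in part. KO replicates 1 and 4, with the most C3 in KO, held 3507 and 2375 TPM of the neutrophil gene S100a9, against 536 to 1102 TPM in KO replicates 2, 3 and 5. KO replicate 5 was lowest in both. The pattern was less clear in WT replicate 6, which had the most C3 of WT replicates 1, 5, 6 and 7. Its summed neutrophil marker level, mostly S100a8 and S100a9, was the lowest of these 4 at 1195 TPM. The single markers were split. S100a8, S100a9, Ltf, Ngp and Cxcr2 were lowest in WT replicate 6 among the 4, Ly6g, Elane, Mpo and Retnlg were highest, and Camp lay between. Its fibroblast and smooth muscle sum was the lowest of all libraries at 113 TPM. In WT replicates 2, 3 and 4, C3 was also high while the summed neutrophil markers were at 79.3 to 109 TPM and fibroblast and smooth muscle markers at 3910 to 9799 TPM. The part of these other cell types in the level of C3 was not tested.

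**Figure D3:**
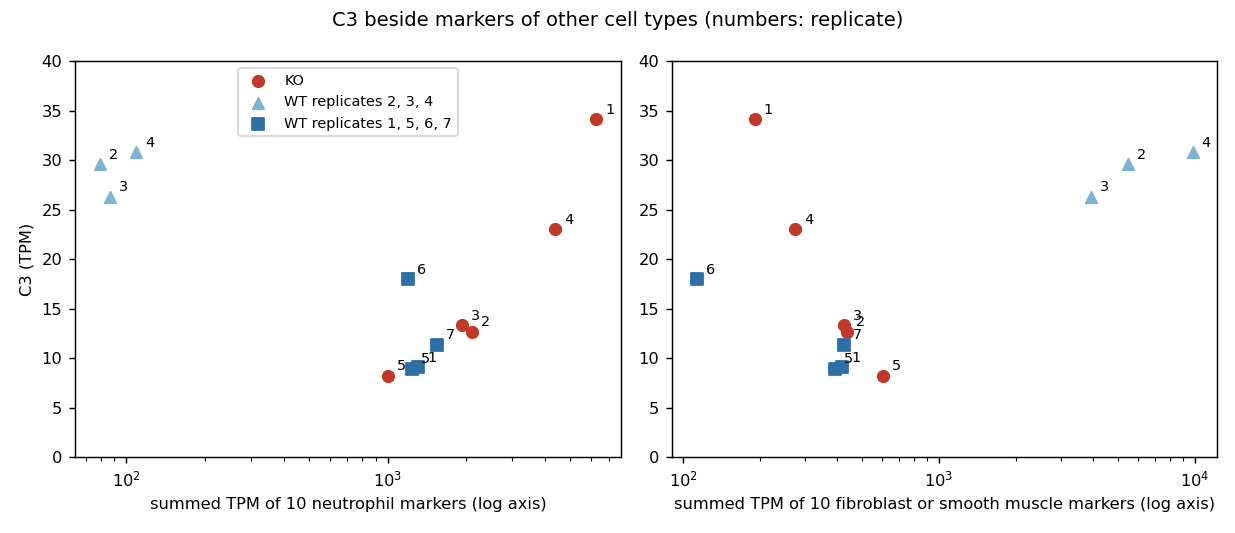
C3 (TPM, linear axis) against the summed TPM of 10 neutrophil markers (left, log axis) and of 10 fibroblast or smooth muscle markers (right, log axis), 1 point per library with its replicate number. KO replicates 1 and 4 lie at the high end of the neutrophil axis, and WT replicates 2, 3 and 4 at the high end of the fibroblast and smooth muscle axis.

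Cfp, which encodes properdin, the only known positive regulator of the alternative arm, was the most abundant gene of that arm that was measured. It stood at 281, 251, 259, 271 and 227 TPM in KO. The WT libraries held 496, 637 and 325 TPM in replicates 2, 3 and 4, and 187, 196, 283 and 192 TPM in replicates 1, 5, 6 and 7. WT replicate 6 reached above the KO range, while WT replicates 1, 5 and 7 lay below it and WT replicates 2, 3 and 4 above it. The log2 fold change was -0.21 ± 0.296 (SE, limma adjusted p of 0.651) with 12 libraries and 0.28 ± 0.119 (SE, adjusted p of 0.241) with 9. Without WT replicate 6 the 9-library difference was 0.42, with a limma adjusted p of 0.0126. Factor D (Cfd), the protease that activates factor B, was at 0 to 0.04 TPM in every library.

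C3ar1, the receptor for C3a, was the only tested member whose KO and WT ranges did not overlap with all 12 libraries. It stood at 317, 355, 333, 329 and 381 TPM in KO. WT replicates 2, 3 and 4 held 163, 173 and 121 TPM, and WT replicates 1, 5, 6 and 7 held 278, 268, 308 and 259.9 TPM. Every KO library lay above every WT library, by a narrow margin over WT replicate 6. With 9 libraries C3ar1 rose by 0.30 ± 0.064 (SE) on the log2 scale, to 343 ± 25.0 TPM in KO (SD, n = 5) against 278 ± 20.9 TPM in WT (SD, n = 4), and the adjusted p from limma was 0.0451. With 12 libraries its log2 fold change was 0.68 ± 0.214 (SE) and the limma adjusted p 0.217. The call with 9 libraries was lost in 7 of the 9 fits that left out a further library (adjusted p of 0.0577 to 0.137) and held without KO replicate 1 (0.0363) or WT replicate 6 (0.0174). It was lost with median-ratio scaling (0.0993), with no filter on low genes (0.0877) and with the number in the sample names as a covariate (0.0803).

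C5ar1, the receptor for C5a, stood at 363, 325, 327, 346 and 371 TPM in KO. It was at 144, 92.3 and 93.4 TPM in WT replicates 2, 3 and 4, while the values were 346, 344, 399 and 319 TPM in WT replicates 1, 5, 6 and 7. KO libraries and these last 4 WT libraries overlapped throughout. The log2 fold change with 9 libraries was -0.02 ± 0.0669 (SE), with a 95% interval from -0.17 to 0.13 and a limma adjusted p of 0.904. With 12 libraries it was 0.71 ± 0.392 (SE, limma adjusted p of 0.322). Ligand genes for these receptors differed in level: C3 was measured at the levels above, while Hc, which encodes C5, was at 0 TPM in every library except WT replicate 3, at 0.06 TPM.

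The C1q genes and both receptors were lower in WT replicates 2, 3 and 4 than in all 9 other libraries. These libraries were singled out by their values, so no test was made. In 4 of the 7 tested members, C1qa, C1qb, C1qc and C5ar1, the highest of the 3 libraries lay at least 2-fold below the lowest of WT replicates 1, 5, 6 and 7. The same was true of 2.04% of all tested genes. On the log2(TPM + 1) scale the gap was 2.37 for C1qa, 1.46 for C1qb, 1.44 for C1qc and 1.14 for C5ar1, and C3ar1 followed with 0.58. No member was at least 2-fold higher in all 3, where 5.61% of all tested genes were. Cfp and C3 were higher than in WT replicates 1, 5, 6 and 7 without overlap, by smaller gaps of 0.20 and 0.52. For C3 this did not extend to KO, where replicate 1 at 34.1 TPM lay above all 3. The C1q share of the summed member TPM was 59.9%, 72.8% and 56.3% in WT replicates 2, 3 and 4, and C1qb ranked between 97 and 393 there. Macrophage markers in these libraries did not all move together. Csf1r, which encodes the growth factor receptor that macrophages depend on, stood at 215, 275 and 169.6 TPM there and at 598 to 910.1 TPM in WT replicates 1, 5, 6 and 7. Cd68 stood at 1533, 1718 and 1119.6 TPM there and at 1379 to 1508 TPM in the remaining WT libraries. Of the 10 macrophage markers, 4 were below and 0 above all 9 other libraries in these 3, and their part and that of the fibroblast and smooth muscle markers in the lower C1q levels was not tested.

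Ratios of 2 genes within a library do not depend on how libraries are scaled. The ratios of C1qa and C1qc to C1qb and of C3ar1 to C5ar1 were chosen after the values were seen and were not tested. C1qc over C1qb was 0.427, 0.477, 0.477, 0.439 and 0.480 in KO replicates 1 to 5. It was 0.526, 0.511 and 0.586 in WT replicates 2, 3 and 4, and 0.506 to 0.514 in WT replicates 1, 5, 6 and 7. All 5 KO libraries lay below all 7 WT libraries. Among all tested genes, the ratio to C1qb separated KO from WT without overlap for 0.413% with 12 libraries and 15.4% with 9. C1qa over C1qb was 0.637 to 0.658 in KO, 0.272 to 0.394 in WT replicates 2, 3 and 4 and 0.674 to 0.716 in WT replicates 1, 5, 6 and 7, so KO lay between the WT sets. The chain composition differed most in WT replicates 2, 3 and 4, where C1qa gave 15.1%, 19.1% and 19.9% of the summed C1q TPM. C1qa gave 30.6% to 31.0% in KO and 30.9% to 32.1% in WT replicates 1, 5, 6 and 7.

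C3ar1 over C5ar1 was 0.874, 1.09, 1.02, 0.950 and 1.03 in KO. It was 1.13, 1.88 and 1.29 in WT replicates 2, 3 and 4 and 0.771 to 0.816 in WT replicates 1, 5, 6 and 7. The KO libraries lay above the last 4 WT libraries and below WT replicates 2, 3 and 4, so KO lay inside the WT range with 12 libraries. The ratio to C5ar1 separated the genotypes for 0.646% of all tested genes with 12 libraries and 4.45% with 9.

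**Figure D4:**
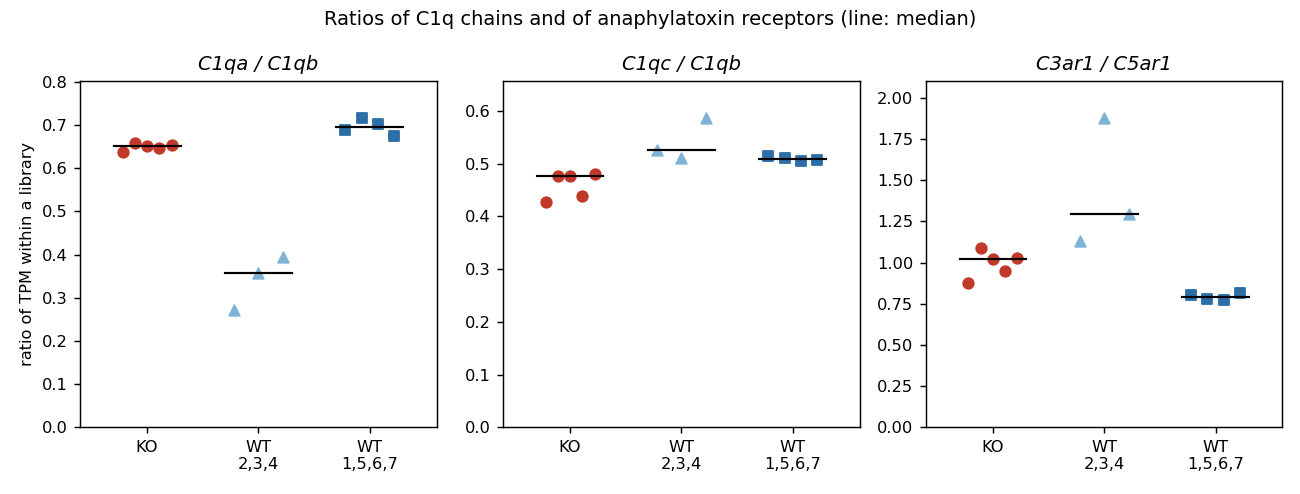
Ratio of TPM within each library for C1qa over C1qb, C1qc over C1qb and C3ar1 over C5ar1, 1 point per library on axes that start at 0, with a line at the median, for KO, WT replicates 2, 3 and 4, and WT replicates 1, 5, 6 and 7. C1qc over C1qb was 0.427 to 0.480 in KO and 0.506 to 0.586 in WT.

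Other complement genes came from a list of 47, of which 46 had a row and 17 reached the level for testing. By limma, 0 of the 17 were called with 12 libraries and 0 with 9, where 0.126% and 2.33% of all tested genes were called. Before adjustment 4 of the 17 had p under 0.05 with 12 libraries, beside 17.5% of all tested genes, and 5 with 9 libraries, beside 18.9%. Their median log2 fold change was 0.20 with 12 libraries and 0.10 with 9. All 7 genes of the terminal arm, whose proteins form the membrane pore, stayed under 1 TPM in every library, the highest being C8g at up to 0.72 TPM. The genes listed at 0 in every library included Mbl1, Mbl2, C7, C8a, C8b and Cd55b.

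The proteases that C1q needs to act were low. C1ra was at 1.66 to 2.49 TPM in KO, 6.85 to 10.7 TPM in WT replicates 2, 3 and 4 and 1.41 to 2.12 TPM in WT replicates 1, 5, 6 and 7. C1s1 was at 0.20 to 0.97 TPM in KO, 2.55 to 6.71 TPM in WT replicates 2, 3 and 4 and 0.22 to 0.70 TPM in WT replicates 1, 5, 6 and 7. In WT replicates 2, 3 and 4, C1ra and C1s1 were high where the C1q genes were low, and C1ra was at least 2-fold higher in all 3. C1ra, C1s1, Cd59a and Cd55 have paralogs in the mouse genome. Whether reads were divided between them was not examined, so their levels are uncertain. C2 overlaps a read-through gene with Cfb and stayed between 0.13 and 1.88 TPM.

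Among lectin genes, the ficolin gene Fcna was at 15.4, 43.2, 41.1, 25.9 and 38.2 TPM in KO, 7.38 to 15.4 TPM in WT replicates 2, 3 and 4 and 14.8 to 26.2 TPM in WT replicates 1, 5, 6 and 7. KO replicates 1 and 4, with the most neutrophil marker transcripts, were the lowest KO libraries. Its 9-library log2 fold change was 0.50 (limma adjusted p of 0.393), and 0.90 without KO replicates 1 and 4 (adjusted p of 0.0461). Colec12, a scavenger receptor with a collectin domain, was at 6.87 to 15.3 TPM in KO, 23.5 to 43.7 TPM in WT replicates 2, 3 and 4 and 7.63 to 10.2 TPM in WT replicates 1, 5, 6 and 7. The 9-library log2 fold change of Colec12 was 0.41 (limma adjusted p of 0.321), and 0.73 without KO replicates 1 and 4 (adjusted p of 0.0177). Fcnb, a ficolin of myeloid precursors, differed from Fcna within KO, at 16.8 and 14.1 TPM in replicates 1 and 4 and at 3.09 to 7.16 TPM in replicates 2, 3 and 5. Fcnb was at 0.03, 0 and 0.30 TPM in WT replicates 2, 3 and 4 and 3.41 to 4.56 TPM in WT replicates 1, 5, 6 and 7, and its 9-library log2 fold change was 0.95 (adjusted p in limma 0.211). Leaving out KO replicates 1 and 4 was chosen after seeing the data. They were the lowest KO libraries for both Fcna and Colec12, so the choice itself raised the fold changes of these genes. In that fit 263 of all 11152 tested genes were called.

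**Figure D5:**
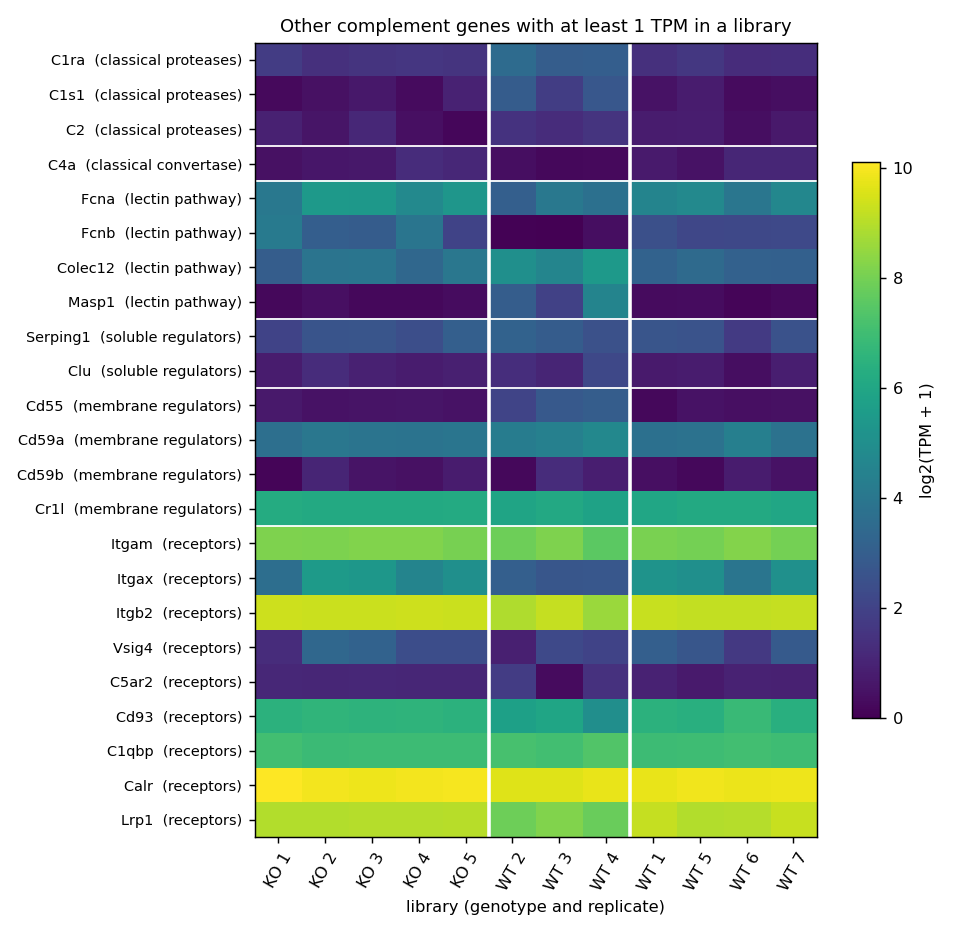
Heat map of log2(TPM + 1) for other complement genes that reached at least 1 TPM in a library, by role, with 1 column per library (KO 1 to 5, WT 2, 3 and 4, WT 1, 5, 6 and 7). The integrin gene Itgb2, Calr and Lrp1 were the highest throughout, and C1ra, C1s1, Masp1 and Cd55 were highest in WT replicates 2, 3 and 4.

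None of the regulators and other receptors tested passed the limma threshold between genotypes. The membrane regulator Cr1l (Crry), which limits C3 deposition on mouse cells, was at 68.7 to 74.2 TPM in KO and 56.3 to 69.1 TPM in WT, and Cd59a, which blocks the pore, at 11.9 to 14.9 TPM in KO and 12.4 to 25.3 TPM in WT. Serping1, the inhibitor of C1r and C1s, was at 3.09 to 7.40 TPM in KO and 2.25 to 8.17 TPM in WT. Calr, a binding partner of C1q on cell surfaces, was at 927 to 1103 TPM in KO and 777 to 948 TPM in WT. Itgb2, the shared chain of complement receptors 3 and 4, was at 624.9 to 642 TPM in KO and 572 to 614 TPM in WT replicates 1, 5, 6 and 7 without overlap; WT replicates 2, 3 and 4 held 379.7 to 600.3 TPM. Its 9-library log2 fold change was 0.10, beside a median of 0.05 over all tested genes, with a limma adjusted p of 0.1001. With median-ratio scaling it was 0.06 (limma adjusted p of 0.361). With 9 libraries the ranges of KO and WT did not overlap for 2 of the 17 tested genes of this list, beside 9.17% of all tested genes. With 12 libraries this held for 1 of the 17, beside 3.56%.

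The genes most like the C1q chains were ranked by Pearson correlation of log2(TPM + 1) over the 9 libraries, a description across libraries that share 2 genotypes and their scaling. Among 8781 tested genes whose mean over these libraries was 5 TPM or more, the highest correlations with the mean of the C1q chains were 0.977 for Slamf9, 0.975 for Trib1 and 0.974 for Gatm. WT replicates 2, 3 and 4 were not used for that ranking. They were low for these genes as well, with Slamf9 at 21.6 to 44.6 TPM there, 146 to 169 TPM in KO and 174 to 237 TPM in WT replicates 1, 5, 6 and 7. Trib1 was at 9.17 to 10.7 TPM in WT replicates 2, 3 and 4 and 32.8 to 44.7 TPM in WT replicates 1, 5, 6 and 7, and Gatm at 13.1 to 18.9 TPM there and 282 to 403 TPM in those. For C3 the highest were Lsp1 (0.980), Rbmxl1 (0.979) and Smpdl3b (0.979). Lsp1 was at 62.5 to 178 TPM in KO and 53.2 to 97.8 TPM in WT replicates 1, 5, 6 and 7. Rbmxl1 varied little, at 61.2 to 68.4 TPM in KO and 62.4 to 64.4 TPM in those WT libraries. In WT replicates 2, 3 and 4, Lsp1 was at 69.2 to 91.2 TPM, Rbmxl1 at 61.0 to 83.9 TPM and Smpdl3b at 9.43 to 11.3 TPM. Unlike C3, each of these genes overlapped WT replicates 1, 5, 6 and 7 there.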

How the data were processed

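RNA was measured in 12 libraries of bone marrow derived macrophages, 5 KO and 7 WT, grouped by the labels. The authors deposited 1 table of TPM values. Salmon 1.2.0, bcl2fastq and mm10 are named in the submitters' processing notes, while the annotation release and the strand setting of the quantification are not stated by the labels. Each library summed to between 940127 and 947987 TPM. TPM carries no depth, so no counting interval was computed. IDs were matched to GENCODE M21 symbols (23423 of 23438).

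The planned test for TPM was used: limma-trend (limma 3.58.1, R 4.3.3) on log2(TPM + 1), with genotype as the only term, over the 11152 genes that reached 1 TPM in 5 libraries or more. Benjamini-Hochberg adjustment covered all of them, with a threshold of 0.05. Fold changes on this scale understate the change of low genes. The fits were also run on simulated data, where 7.07% of the calls were false with 12 libraries and 4.78% with 9. Each simulated gene had the same spread in both genotypes and no library stood apart. The simulation therefore does not show how the 12-library fit behaves with WT replicates 2, 3 and 4. Promoters were searched in Python 3.11.15. The members, lists, alternatives and the set of 9 libraries were chosen with earlier results of these data known. Of the other complement genes, those named are the 2 highest per role, those called and those at 0; some genes of this list are counted but not reported here by name. Fcnb, C2, Hc, Masp1, Cd55 and Lrp1 were named after their values were seen. So were the markers S100a9, Lyz2, Cd14, Csf1r, Cd68, Marco, Chil3 and Siglecf, picked from their lists, and the other neutrophil markers. Same-numbered libraries were not treated as pairs, since no label ties them.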

Additional observations from a re-analysis of the deposited data

Results flagged for a closer look

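Single libraries far from the rest of their genotype were sought in the TPM of 22 genes, the members and the other complement genes chosen by level, in 44 groups. The gap of 1 value was flagged, and chance flags about 1 group in 20. C9, a pore component, was at 0.19 TPM in KO replicate 1 and at 0.01 to 0.02 TPM in the other 4 KO libraries. At this level its number of reads is unknown, and no explanation was tested.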

How the results depend on the processing

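Other scalings, filters, a pseudocount of 0.1, library weights, a sample number block, replicate numbers and leaving out libraries were tried. The sample number block split the numbers in the sample names, 1 to 5 against 6 to 12, and is not a factor that the labels name. With 12 libraries, 14 genes were called. Median-ratio scaling gave 4, quantile normalization 4, sample quality weights 759, the sample number block 3, and single libraries left out 2 to 36. With 9 libraries, 260 were called. No filter gave 167, sample quality weights 758, the sample number block 132, and single libraries left out 51 to 462. The split of higher against lower in KO was 12 to 2 with 12 libraries and 2 to 2 under both median-ratio scaling and quantile normalization; with 9 libraries it was 180 to 80, against 83 to 138 and 84 to 116. Of the members, 0 were called with 12 libraries, and 1 (C3ar1) with sample quality weights. With 9 libraries 2 were called, against 1 (C1qc) with median-ratio scaling, 0 with no filter and 0 with the sample number block. The count was 1 (C3ar1) without KO replicates 1 and 4, and 0 to 3 with single libraries left out. Of the other complement genes, 2 (Fcna and Colec12) were called without KO replicates 1 and 4, in place of 0. There, 263 of all 11152 tested genes were called. With single libraries left out, 0 of the other complement genes were called.

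Sample quality weights turned 4 of the 12-library log2 fold changes, to -0.0386 for C1qa, -0.14 for C1qc, 0.53 for C3 and 0.32 for Cfp, and that of C5ar1 with 9 libraries to 0.00403. C3 turned to -0.0228 with 9 libraries without KO replicates 1 and 4. With single libraries left out, C3 ranged from -0.32 to 0.16 with 12 libraries and C5ar1 from -0.0659 to 0.042 with 9. The causes were not tested. The 9-library signs of C1qa, C1qb, C1qc, Cfp and C3ar1 held in all 17 alternatives. The replicate numbers as a block, on the 10 libraries with numbers 1 to 5, left 0 genes called, against 13 in the same libraries without it. Deviations of same-numbered libraries correlated at -0.233 to 0.273, and 2 of 5 KO libraries correlated best with their own number. The count of members at least 2-fold lower in WT replicates 2, 3 and 4 was 4 in every alternative, and that of members at least 2-fold higher was 0, or 1 (C3) without WT replicate 6, so 0 to 1 with single libraries left out. TPM without depth limits what can be said of genes below about 1 TPM.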
